A study of Mus musculus with 42 samples.

Results

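The genes described here are 10 enzymes that make proline, serine, one-carbon units and asparagine, and they were followed in RNA from the inner lining of mouse carotid arteries under low and high flow. They are Aldh18a1, Pycr1, Phgdh, Psat1, Psph, Shmt1, Shmt2, Mthfd2, Mthfd1l and Asns, and all 10 were found by name among the 21674 genes of the deposited table. They were selected on earlier results of these same data, by name and without a numerical threshold, so their differences between the untreated low-flow pools and either untreated control at 48 hr are given as a description, with no test.

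Proline is built from glutamate, first by the synthase encoded by Aldh18a1 and last by the reductase encoded by Pycr1. Serine is built from an intermediate of glycolysis by Phgdh, Psat1 and Psph in turn. Serine then gives a one-carbon unit to folate through Shmt1 in the cytosol and Shmt2 in mitochondria, and the mitochondrial folate enzymes Mthfd2 and Mthfd1l carry that unit towards formate, which feeds the synthesis of purines and thymidylate. Asns makes asparagine from aspartate and glutamine. Cells that grow and divide are known to need all of these products, and the transcription factor Atf4 is known to act on many of these genes.

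In partial ligation, all but 1 of the outflow branches on the left side are tied off, which slows the flow there, and the contralateral artery keeps high flow. Each library came from a pool of 3-5 arterial flushes of the intima, which is enriched in endothelium and also holds recruited blood cells. Untreated C57BL/6J mice gave 3 pools each of low-flow, high-flow and sham-operated arteries at 48 hr, named a, b and c here within each group, and nothing matches a letter of one group to that of another. Treated C57BL/6J mice gave 2 pools a group at 48 hr, which were low flow with anti-GPIba, which depletes platelets, low flow with anti-Gr1, which depletes granulocytes, low and high flow with the IgG control, low flow with clodronate liposomes, which deplete macrophages, and low and high flow with PBS liposomes. These mice were young males, and the antibody to platelets and the liposomes were given at ligation and anti-Gr1 the day before. Rbfox2 EC-KO mice carried Cdh5(PAC)-CreERT2, a Cre driven from an endothelial promoter, with Rosa26-mTmG and Rbfox2 lox/lox, and their littermate controls carried Rosa26-mTmG and Rbfox2 lox/lox without Cre. These adult mice of both sexes were examined at 7 days, with low-flow pools 1, 4 and 5 and high-flow pools 4 and 5 of each genotype, numbered as in the deposited table. In the header of the table, the read files of the pools numbered 1 carry another date prefix than those of the other 7 day pools. Those of the low-flow pools numbered 4 and 5 do not all carry the same date prefix either. The cultures were 1 line of aortic endothelial cells immortalized with TetOn-SV40, given nothing, 10% plasma, platelets and macrophages, or all of these for 48 hr without doxycycline, primary aortic endothelial cells of both Rbfox2 genotypes after 7 days of culture, and primary aortic cells sorted on eGFP, from mice with Cdh5(PAC)CreERT2 and mTmG, after 5 days, with 1 library each.

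The libraries held between 4064477 and 19035957 counts on genes. Levels are given as FPKM, which are counts scaled to the effective gene length in kilobases and to the library total, and fold-changes come from edgeR, which rescales each library by a TMM factor. Computed over the 9 untreated pools together, that factor was 0.569 and 0.549 in low-flow pools a and b. It was 1.12 to 1.27 in the other 7 untreated pools. The untreated fits of 2 groups each computed their own factors. The 10 highest genes held 22.8% and 23.5% of the counts of low-flow pools a and b and at most 10.6% of the others. In the fits, TMM scaling moved the median log2 fold-change of all genes by 0.62 between untreated low and high flow. The shift was 0.66 between low flow and sham, and 0.11 or less in every other comparison. All 11 endothelial markers were detected in every group, with a sum of 4873 to 18470 CPM (counts scaled to the library total) in the fresh intima and only 296 to 373 CPM in the cell line. The macrophage markers summed to 2137 to 3314 CPM at low flow, 69.3 to 170.1 at high flow and 212 to 645 in sham arteries. In bulk RNA, fewer cells of a type and less RNA per cell cannot be told apart. Rbfox2 itself was at 0.169 to 1.09 FPKM in the 5 EC-KO pools of 7 days and at 2.74 to 5.73 FPKM in the 5 control pools, so the groups did not overlap.

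Because the members moved together, the stretch before their starts was read for a pair of motifs, taking 250 bases before and 50 after each RefSeq start on GRCm38.p6. The letters TGATGNAA, a core of the composite site bound by C/EBP and ATF factors such as Atf4, stood in the windows of Pycr1 and Asns on the strand of the gene. The letters CACGTG, the E-box bound by Myc and its relatives, which read the same on both strands, stood in the window of Aldh18a1. The 3 sites are shown because they are the only matches among the 11 windows of the 10 members, with the motif in capitals.
Pycr1, chr11:120643828-120643867, minus strand, motif starting 103 bases before the start: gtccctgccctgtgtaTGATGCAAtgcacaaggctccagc
Asns, chr6:7693209-7693248, minus strand, motif starting 23 bases before the start: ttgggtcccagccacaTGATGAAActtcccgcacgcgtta
Aldh18a1, chr19:40588501-40588538, minus strand, motif starting 59 bases before the start: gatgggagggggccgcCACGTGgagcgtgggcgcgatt
Over all 32851 windows, 3.97% held TGATGNAA and 7.15% held CACGTG, searched on both strands. The other 7 members held neither set of letters in these windows, and the 3 matches overlap no other match.

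In untreated arteries at 48 hr, Aldh18a1, Pycr1, Phgdh and Psat1 were higher in every low-flow pool than in every high-flow pool, while Psph overlapped. Aldh18a1 (mm9 chr19:40624747-40662953), which encodes the first enzyme from glutamate to proline, was at 8.75, 14.9 and 20.9 FPKM in low-flow pools a, b and c, at 2.85, 3.35 and 3.78 at high flow and at 4.91, 4.08 and 7.70 in sham arteries. Pycr1 (mm9 chr11:120497026-120505083), the last enzyme of the route, was at 2.18, 4.07 and 6.02 FPKM at low flow, at 0.339, 0.593 and 0.477 at high flow and at 0.599, 0.533 and 2.29 in sham arteries. For both genes every low-flow pool was above every high-flow pool, and for Pycr1 sham pool c reached into the low-flow range.

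Phgdh (mm9 chr3:98117093-98143913), which commits a glycolytic intermediate to serine, was at 13.9, 16.7 and 29.9 FPKM at low flow, at 2.58, 1.90 and 2.93 at high flow and at 4.53, 4.56 and 7.95 in sham arteries. Psat1 (mm9 chr19:15979168-16021827), the transaminase of the second step, was at 33.0, 26.1 and 43.4 FPKM at low flow, at 0.946, 3.06 and 2.00 at high flow and at 3.70, 2.23 and 16.8 in sham arteries. The low-flow pools of both genes were above all pools of the other groups. Psph (mm9 chr5:130271434-130293129), the phosphatase of the last step, was at 13.4, 12.0 and 27.0 FPKM at low flow, at 14.0, 14.9 and 15.2 at high flow and in sham arteries at 12.4 and 20.1 in pools b and c and between these in pool a. Its groups overlapped, with low-flow pools a and b below every high-flow pool in FPKM and pool c above all others.

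Of the one-carbon enzymes, Mthfd2 (mm9 chr6:83255685-83267600), a mitochondrial folate dehydrogenase, had the highest levels at low flow, with 41.6, 53.5 and 79.6 FPKM at low flow, 10.7, 11.7 and 11.4 at high flow and 9.48, 9.58 and 25.8 in sham arteries. Shmt2 (mm9 chr10:126954195-126959491), the mitochondrial hydroxymethyltransferase, was at 19.7, 32.5 and 48.2 FPKM at low flow, at 12.8, 10.6 and 9.70 at high flow and at 15.1, 13.0 and 17.4 in sham arteries. Low-flow pools of both genes lay above all other pools. Its cytosolic counterpart Shmt1 (mm9 chr11:60601606-60625220) was at 5.06, 5.98 and 8.13 FPKM at low flow, at 0.367, 0.598 and 1.84 at high flow and at 0.370, 0.384 and 1.60 in sham arteries, again without overlap. Mthfd1l (mm9 chr10:6179460-6373423), which releases formate in mitochondria, was at 1.79, 3.95 and 5.46 FPKM at low flow, at 0.730, 1.35 and 1.56 at high flow and at 1.94, 1.95 and 2.43 in sham arteries. Low-flow pool a of Mthfd1l was above the high-flow pools and below the sham pools. Asns (mm9 chr6:7625169-7643254), the asparagine synthetase, was at 21.2, 22.9 and 39.8 FPKM at low flow, at 0.922, 3.68 and 8.16 at high flow and at 2.66, 0.414 and 9.54 in sham arteries, with no overlap between low flow and the rest.

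**Figure D1:**
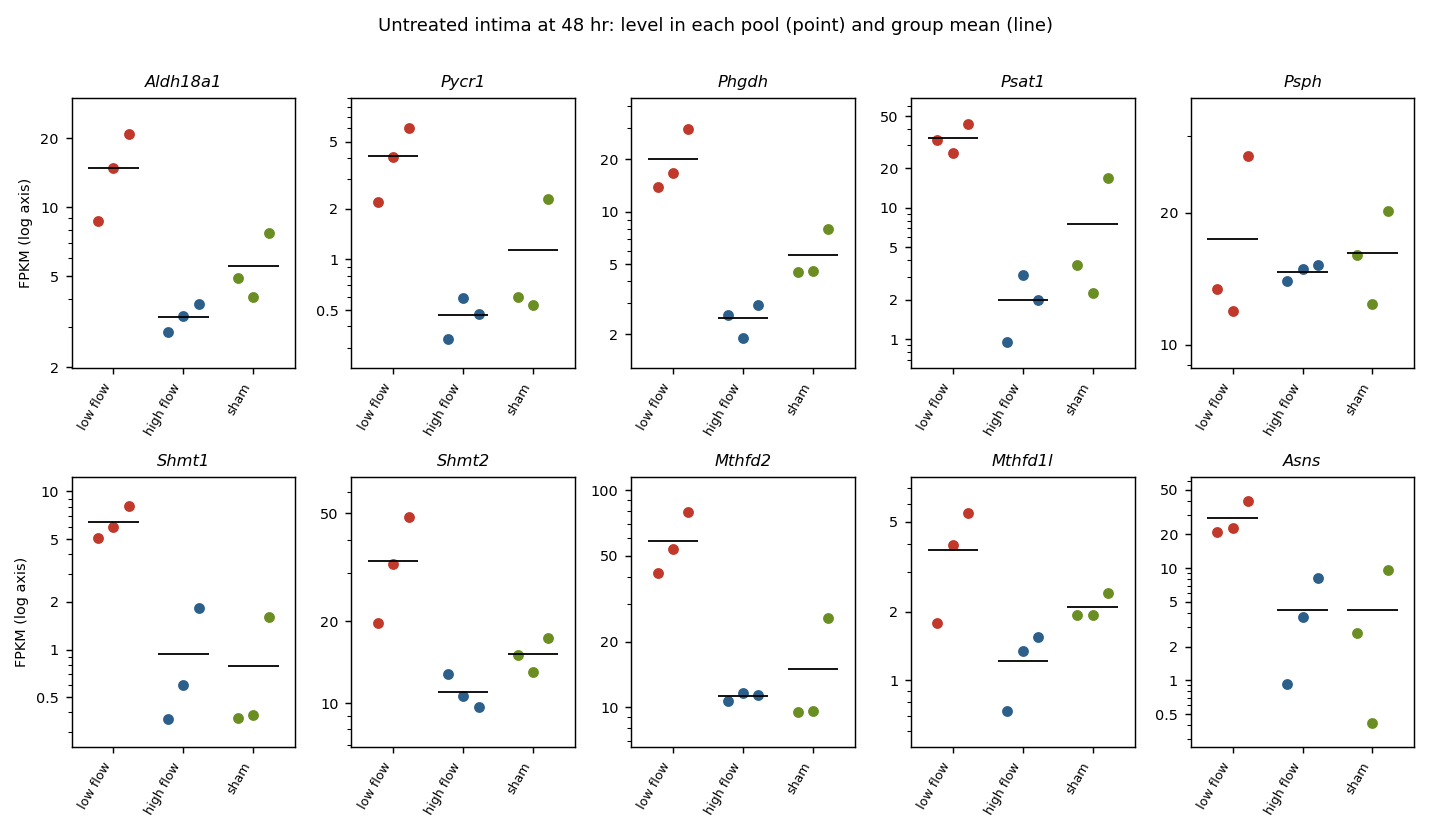
FPKM on a log axis for the 10 genes in the untreated pools at 48 hr, with a point for each of 3 pools a group and a line at the group mean. The low-flow points of Psat1 lie at 26.1 to 43.4 FPKM against 0.946 to 3.06 at high flow, while those of Psph overlap the other groups, and sham pool c is the highest sham pool for every gene.

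Between untreated low and high flow, the log2 fold-change was 4.74 ± 0.32 (SE) for Psat1, 3.69 ± 0.37 for Pycr1, 3.67 ± 0.23 for Phgdh, 3.47 ± 0.44 for Shmt1 and 3.37 ± 0.45 for Asns. It was 3.04 ± 0.20 for Mthfd2, 2.81 ± 0.24 for Aldh18a1, 2.25 ± 0.24 for Shmt2 and 2.23 ± 0.36 for Mthfd1l. Psph had the smallest, 0.87 ± 0.17, and with plain library totals in place of TMM factors it was 0.25 ± 0.49. The 9 genes other than Psph did not overlap between the groups, as 12.2% of genes did not in this direction. The choice of the members rested on this contrast, and nothing is read from the count. The median of the members was 3.21 and that of all genes -0.07. By plain totals the split of all genes was 1044 higher and 3084 lower, against 2652 and 2543 with TMM factors.

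The comparison with sham arteries uses the same low-flow pools, on which the choice of the members rested, with another control, and is given without a test for the same reason. The log2 fold-change was above 0 for all 10 genes, and 7 of the 10 did not overlap, as 7.49% of genes did not. It was 3.66 ± 0.47 (SE) for Shmt1, 3.37 ± 0.67 for Asns, 2.87 ± 0.62 for Psat1 and 2.48 ± 0.26 for Phgdh. The smallest was that of Psph, 0.76 ± 0.21, which was 0.11 ± 0.50 with plain totals. The median of the members was 2.46 and that of all genes -0.04. With plain totals the split of all genes went from 2304 higher and 2195 lower to 642 and 2716.

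Sham pool c stood apart for these genes. Its summed members were at 223 CPM against 118.5 and 99.4 in sham pools a and b, its 15 proliferation genes summed to 949 CPM against 368 and 223, its macrophage markers to 645 CPM against 212 and 213 and its smooth muscle markers to 1630 CPM against 724.5 and 446. Without it, the log2 fold-change of low flow against sham became 4.30 for Psat1, 4.89 for Asns, 4.78 for Shmt1 and 3.53 for Pycr1. The part of these lists in the difference was not tested.

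High-flow arteries did not differ from sham arteries by the test in any of the 8 members that passed the filter on low counts, and 0.0% of 11030 genes passed, with 101 called by DESeq2 and 868 at p under 0.05 before adjustment. Pycr1 and Shmt1 had too few counts to be tested. All 8 estimates were below 0, from -1.88 ± 0.72 for Psat1 (adjusted p = 0.528) to -0.0046 ± 0.86 for Asns (adjusted p = 0.9995). These high-flow pools were part of the contrast on which the choice of the members rested. The direction of the estimates is therefore a description, and nothing is read from their count. The sign was not stable for 3 of them, since without sham pool c Psph was at 0.12, Mthfd2 at 0.32 and Asns above 0 as well.

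The other genes of these pathways did not all move with the members. Between untreated low and high flow, 23.6% of the 11236 genes tested rose and 22.6% fell, beside which the counts of each list stand. All of these counts use TMM scaling. The lists were chosen with earlier results of these data known, and the genes named from them by the smallest adjusted p in this contrast. Their counts and adjusted p-values are therefore a description and not a test of the lists. Of 9 other proline genes tested, 4 rose and 3 fell between untreated low and high flow, among them Prodh, which degrades proline, with a log2 fold-change of 2.16 ± 0.26 (adjusted p = 7.85e-05), Pycrl, a further reductase, with 1.17 ± 0.18 (adjusted p = 0.000358), and Glul, the glutamine synthetase, with -1.64 ± 0.20 (adjusted p = 0.000101). Prodh was at 6.60 to 16.6 FPKM at low flow and 2.63 to 4.74 at high flow, so an enzyme of the opposite direction of the proline route rose as well. Of 6 other serine and glycine genes tested 2 rose and 2 fell, with Gcsh, a part of the glycine cleavage system, at 1.52 ± 0.18 (adjusted p = 8.14e-05) and Gldc, the decarboxylase of that system, at -1.33 ± 0.28 (adjusted p = 0.00318).

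The folate and nucleotide list moved mostly one way after TMM scaling, with 12 of 20 higher and 1 lower. In plain CPM, without that scaling, its sum was at 499, 521 and 806 in low-flow pools a, b and c. At high flow it was at 501 to 508 CPM, so the sums overlapped. Tyms, which makes thymidylate, had a log2 fold-change of 3.28 ± 0.31 (adjusted p = 1.55e-05), and Mthfd1, the cytosolic folate enzyme, 2.04 ± 0.23 (adjusted p = 5e-05). Of the 20 genes for tRNA synthetases 17 rose and 0 fell, with a median of 1.19, and 16 of the 20 rose against sham, as 20.6% of 11164 genes did, led by Cars at 2.53 ± 0.18 (adjusted p = 3.09e-06). Of 8 amino acid transporters tested 3 rose and 0 fell. Among them were Slc38a1 at 4.72 ± 0.28 (adjusted p = 1.94e-06) and the cystine carrier Slc7a11 at 3.61 ± 0.40 (adjusted p = 4.41e-05). In plain CPM the tRNA synthetase genes summed to 1405, 1672 and 2791 in low-flow pools a, b and c and 1291 to 1469 at high flow. The transporters summed to 216, 225 and 507 CPM against 344 to 401, so low-flow pools a and b were below every high-flow pool.

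A further list held Atf4 and some of its known targets, without the members, the transporters and the tRNA synthetases. The 14 genes tested from it split into 4 higher and 4 lower, near the shares over all genes. Sesn2 was at 2.55 ± 0.42 (adjusted p = 0.000633) and Ddit3 at -1.57 ± 0.27 (adjusted p = 0.000899). Atf4 itself was at 42.0, 50.5 and 99.95 FPKM at low flow and at 53.4, 49.5 and 45.3 FPKM at high flow, which overlap, while the log2 fold-change after TMM scaling was 0.99 ± 0.19 (adjusted p = 0.00167). Of 7 genes around aspartate and asparagine 2 rose and 3 fell, with Got1 at 1.17 ± 0.20 (adjusted p = 0.000817) and Ass1, which uses aspartate for arginine synthesis, at -2.11 ± 0.27 (adjusted p = 0.000122). All 15 proliferation genes rose, with a median of 4.95, and 10 of 11 macrophage markers and 7 of 7 neutrophil markers tested rose beside the members. The neutrophil markers summed to 251 to 501.5 CPM at low flow and 7.49 to 24.5 at high flow. The smooth muscle markers summed to 2326 to 4305 and 527 to 622 CPM, with 3 of 6 higher and the other 3 estimates below 0. All 7 adipocyte markers tested fell, and the endothelial sum was 4873 to 6284 CPM at low flow and 10430 to 12010 at high flow, with 2 of 11 markers higher and 3 lower. The part of these lists in the members' difference was not tested.

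In the treated mice the difference between low and high flow was seen in other pools. The date prefixes of their read files were not compared between low and high flow. With IgG, 9 of the 10 genes rose at low flow against 22.8% of the 13401 genes tested, and all 10 did not overlap, as 42.7% of genes did not. The median of the members was 3.31 and that of all genes 0.07. With PBS liposomes 8 of the 10 rose against a background of 19.6%, all 10 without overlap against 36.5%, and the medians were 3.01 and 0.06. These counts rest on few pools. With 1 pool left out, 5 to 9 genes passed with IgG, 5 without high-flow pool 1 or low-flow pool 2, and 0 to 6 with PBS liposomes, 0 without high-flow pool 1, 4 without low-flow pool 2 and 5 without low-flow pool 1. Over all genes, 10.1% to 17.7% rose in these fits with IgG and 6.06% to 14.5% with PBS liposomes.

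Psat1 was at 28.3 and 50.1 FPKM in low-flow IgG pools 1 and 2 and at 0.820 and 0.777 at high flow, with a log2 fold-change of 5.53 ± 1.15 (adjusted p = 0.00438). Pycr1 was at 4.89 and 6.03 FPKM at low flow with IgG, and at high flow it had 0 counts in pool 1, where 3 counts would give 0.0881 FPKM, and 0.318 FPKM in pool 2. Asns was at 20.1 and 27.1 FPKM at low flow with IgG, and at high flow at 0 counts in pool 1, where 3 counts would give 0.137 FPKM, and at 1.61 FPKM in pool 2. Both genes rose, with adjusted p = 0.00863 for Pycr1 and adjusted p = 0.0190 for Asns. Psph, which overlapped in the untreated pools, was here at 21.3 and 25.2 FPKM at low flow and 5.96 and 8.28 at high flow with IgG, and at 32.7 and 34.9 against 9.07 and 11.5 with PBS liposomes. Its log2 fold-change was 1.62 ± 0.37 (adjusted p = 0.00676) with IgG and 1.83 ± 0.37 (adjusted p = 0.00415) with PBS liposomes.

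Phgdh was at 22.7 and 22.96 FPKM at low flow and 4.15 and 1.49 at high flow with IgG (2.95 ± 0.77, adjusted p = 0.0120), and Shmt2 at 53.45 and 65.4 FPKM against 15.2 and 10.8 (2.12 ± 0.54, adjusted p = 0.0104). Both also rose with PBS liposomes, where their low-flow and high-flow pools again did not overlap. Mthfd1l passed with neither control. It was at 9.63 and 10.99 FPKM at low flow and 6.05 and 4.99 at high flow with IgG (log2 fold-change 0.82 ± 0.57, adjusted p = 0.262), and at 10.9 and 8.65 against 4.33 and 4.82 with PBS liposomes (1.21 ± 0.57, adjusted p = 0.121). Aldh18a1 did not pass with PBS liposomes, where it was at 39.4 and 29.7 FPKM at low flow and 9.65 and 15.8 at high flow (1.56 ± 0.61, adjusted p = 0.0655). Shmt1 had the largest difference with PBS liposomes, with 10.2 and 13.3 FPKM against 0.301 and 0.998 (4.28 ± 1.08, adjusted p = 0.0114), and Mthfd2 was at 88.0 and 57.4 FPKM against 3.67 and 8.15 (3.74 ± 1.03, adjusted p = 0.0167). Among the other pathway genes, 11 of 21 folate genes rose with IgG and 11 with PBS liposomes, and 1 and 0 fell. Of 20 tRNA synthetase genes 12 and 14 rose and 0 fell with either. Of 19 genes of the Atf4 list 6 rose and 2 fell with IgG, and 4 and 1 with PBS liposomes. The proline list of 9 had 3 higher and 3 lower with IgG, then 3 and 2. The serine and glycine list of 8 had 3 and 1 with each. The 11 transporters had 4 and 1, then 3 and 0, and the 8 aspartate genes 1 and 1, then 1 and 2.

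With anti-GPIba 3 of the 10 genes fell at low flow. Psat1 was at 2.57 and 2.04 FPKM in anti-GPIba pools 1 and 2 against 28.3 and 50.1 with IgG, and fell by 4.12 ± 1.04 on the log2 scale (adjusted p = 0.0317). Psph was at 9.92 and 9.06 FPKM against 21.3 and 25.2 (-1.32 ± 0.37, adjusted p = 0.0371), and Mthfd1l at 3.08 and 2.00 FPKM against 9.63 and 10.99 (-2.05 ± 0.59, adjusted p = 0.0396). These 3 genes stand beside 10.5% of all genes that fell.

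The other 7 members also had both anti-GPIba pools below both IgG pools, as 38.4% of genes did, without passing the test. Shmt1 was at 1.21 and 1.498 FPKM against 7.96 and 14.0 (-3.05 ± 1.00, adjusted p = 0.0566), and Aldh18a1 at 10.7 and 7.19 FPKM against 28.7 and 35.1 (-1.87 ± 0.61, adjusted p = 0.0557). Pycr1 was at 0.879 and 0.619 FPKM against 4.89 and 6.03 (-2.89 ± 1.04, adjusted p = 0.0714). Phgdh was at 4.82 and 7.91 FPKM against 22.7 and 22.96 (-1.87 ± 0.73, adjusted p = 0.0910). Shmt2 was at 25.7 and 19.9 FPKM against 53.45 and 65.4 (-1.42 ± 0.52, adjusted p = 0.0774). The pools of each group were nearer to each other than to those of the other group in both genes. Mthfd2 was at 9.94 and 12.2 FPKM against 44.4 and 56.0 (-2.21 ± 0.96, adjusted p = 0.120), and Asns at 2.83 and 8.78 FPKM against 20.1 and 27.1 (-2.06 ± 1.18, adjusted p = 0.227). The median over the members was -2.05 and that of all genes -0.04.

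The count of 3 depended on the fit. It was 8 by DESeq2, where 13.3% of all genes fell, 6 without a low count filter, where 9.28% fell, and 10 with only the 2 groups in the fit, where 20.2% fell, and 0 when any 1 of the 4 pools was left out, which leaves an arm with 1 pool assumed to vary like the others. With the replicate number as a block it was 6, where 1991 of 13401 genes fell, although equal numbers did not go together in these pools. In the anti-GPIba pools the macrophage markers summed to 224 and 324 CPM against 2409 and 2221 with IgG, and the proliferation genes to 219 and 161 CPM against 1545 and 2614, so both lists were lower beside the members. The smooth muscle markers were lower in sum too, at 724 and 1024 CPM against 4371 and 4724. Of these 8 markers 2 were called lower, while 3 had estimates above 0. The neutrophil markers were lower as well, at 7.93 and 15.4 CPM against 398 and 137, with 6 of 10 called lower. The part of these lists in the result was not tested. Of the other pathway genes, 5 of 20 tRNA synthetase genes and 2 of 21 folate genes fell and 0 of these lists rose. Over all 13401 genes, 1405 fell and 811 rose. In the proline list 2 of 9 rose and 1 fell, and in the serine and glycine list 1 of 8 rose and 1 fell. Of 11 transporters 1 rose and 1 fell, of 19 genes of the Atf4 list 1 rose and 2 fell, and of 8 aspartate genes 0 rose and 1 fell.

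None of the 10 genes passed the test with anti-Gr1 or with clodronate, and the pools of each group differed widely. With anti-Gr1, 0.0% of 13401 genes passed, with 142 called by DESeq2 and 2432 at p under 0.05 before adjustment. All 10 estimates were below 0 with a median of -0.83, against 0.0009 over all genes, and 6 of the 10 did not overlap in the lower direction, as 30.0% of genes did not. Mthfd2 was at 11.2 FPKM in anti-Gr1 pool 1 and at 50.9 in pool 2, and Aldh18a1 at 11.1 and 33.9, so pool 1 was low and pool 2 lay within or near the IgG range. Psat1 was low in both, with 5.11 and 13.4 FPKM (-2.05 ± 0.95, adjusted p = 0.278). The summed members were at 188 and 494 CPM in these pools, the macrophage markers at 1264 and 1312 CPM and the proliferation genes at 311 and 323 CPM. Between pools 1 and 2 the sum of the smooth muscle markers went with the members, at 1804 and 6233 CPM. So did Atf4, at 69.6 and 146.8 FPKM, and Myc, at 77.0 and 167 FPKM. Against IgG, 6 of the 8 smooth muscle estimates were above 0. Their part in the result was not tested.

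With clodronate 0.119% of genes passed, none of them a member, the estimates ran from -1.36 to -0.61 and their median was -0.82, against -0.02 over all genes. Mthfd2 was at 6.60 FPKM in clodronate pool 1 and 66.7 in pool 2, against 88.0 and 57.4 with PBS liposomes, and Psat1 at 3.64 and 51.8 against 35.2 and 60.4. Pool 1 was below both control pools for all members and pool 2 was not, other than for Asns at 2.48 and 31.75 FPKM against 50.8 and 31.76. The macrophage markers were at 244 and 236.5 CPM in these pools, so they were as low in pool 2 as in pool 1, while the proliferation genes were at 245 and 2639 CPM, the summed members at 152 and 749 CPM and Atf4 at 70.4 and 133 FPKM. Without clodronate pool 2, 4 genes fell, which were Phgdh, Psat1, Psph and Mthfd1l, as 3.33% of all genes did, and without pool 1 none did.

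A further pair of low-flow libraries, read at 100 bp, held 1 pool with PBS liposomes and 1 with clodronate, so they carry no replicate check. The summed members were at 616.5 and 476 CPM and the macrophage markers at 1549 and 220.5. The ratio of clodronate to PBS liposomes was 0.614 for Asns, with an interval of 0.529 to 0.713 that covers counting error only, and 1.06 (0.887 to 1.28) for Psph. For 6 of the 10 genes the 95% interval lay below 1, for 4 it held 1 and for 0 it lay above, against 23.4%, 57.9% and 18.7% of the 10837 genes with at least 10 counts in both, whose median ratio was 0.977. Anti-GPIba and anti-Gr1 pools were also compared with each other. No member passed, as for 0.0% of all genes, with 354 genes called by DESeq2 and 1409 at p under 0.05 before adjustment. The members' estimates were -2.07 to -0.51 with a median of -1.41, against -0.03 over all genes.

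**Figure D2:**
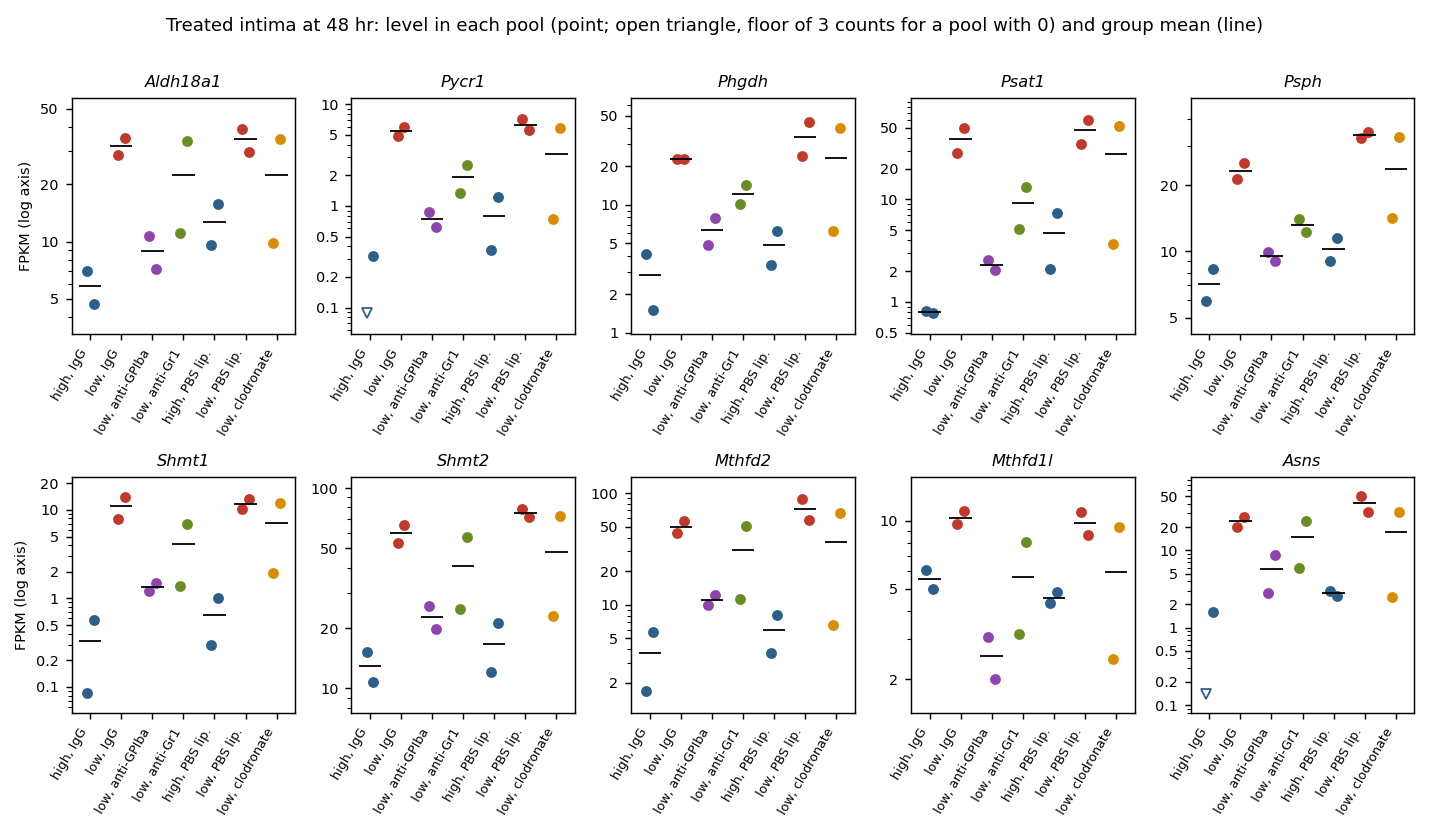
FPKM on a log axis for the 10 genes in the treated pools at 48 hr, with a point for each of 2 pools a group, a line at the mean, and an open triangle at the level of 3 counts for a pool with 0. For Psat1 the anti-GPIba points lie at 2.04 and 2.57 FPKM, below the IgG low-flow points at 28.3 and 50.1, while the clodronate points lie apart at 3.64 and 51.8.

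The question at 7 days was whether loss of endothelial Rbfox2 changes the response to low flow. In controls 3 of the 10 genes rose at low flow, which were Aldh18a1, Pycr1 and Shmt1, against 0.959% of the 13352 genes tested. The median over the members was 3.63 and that of all genes 0.04, and 9 of the 10 did not overlap, as 24.1% of genes did not. Aldh18a1 was at 16.4, 51.3 and 53.3 FPKM in low-flow control pools 1, 4 and 5 and at 7.17 and 8.15 in high-flow pools 4 and 5 (2.32 ± 0.49, adjusted p = 0.0440). Pycr1 was at 1.59, 4.04 and 6.44 FPKM against 0.319 and 0.160 (3.98 ± 0.82, adjusted p = 0.0420). Shmt1 was at 3.17, 12.5 and 12.9 FPKM against 0.530 and 0.833 (3.73 ± 0.80, adjusted p = 0.0443). Pool 1 was the lowest of the low-flow controls for every one of these genes.

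Psat1 and Mthfd2 had larger estimates and did not pass. Psat1 was at 8.20, 42.9 and 91.0 FPKM at low flow and 0.753 and 1.75 at high flow (5.19 ± 1.21, adjusted p = 0.0521), and Mthfd2 at 4.76, 55.4 and 58.6 FPKM against 1.06 and 1.15 (5.09 ± 1.22, adjusted p = 0.0546). Asns was at 6.39, 22.2 and 39.95 FPKM against 1.37 and 0.299 (4.69 ± 1.07, adjusted p = 0.0514). Phgdh was at 15.2, 32.9 and 67.7 FPKM against 4.21 and 2.11 (3.54 ± 1.07, adjusted p = 0.0835), and Shmt2 at 24.1, 75.3 and 85.5 FPKM against 13.5 and 13.4 (2.12 ± 0.49, adjusted p = 0.0521). In these genes too pool 1 was the low-flow pool nearest to high flow. Mthfd1l alone overlapped, with 5.15, 13.6 and 15.6 FPKM at low flow and 4.86 and 6.03 at high flow. Low-flow control pool 1 had summed members of 221 CPM against 739 and 983 in pools 4 and 5, its proliferation genes summed to 429 CPM against 3095 and 4110, and its endothelial markers to 11720 CPM against 5654 and 6109. Without the pools numbered 1, an alternative chosen after seeing the data, all 10 genes rose, against 15.3% of genes, with log2 fold-changes from 1.19 for Psph to 5.70 for Psat1. When any 1 of the other 4 control pools was left out, or only the 2 groups were fitted, no member passed.

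In Rbfox2 EC-KO mice no gene passed between low and high flow, against 1.09% of genes in either direction, although all 10 estimates were above 0, with a median of 1.40 and one of 0.01 over all genes. Pycr1 was at 1.92, 2.14 and 1.25 FPKM at low flow and 0.137 and 0.201 at high flow (3.35 ± 0.79, adjusted p = 0.0827), without overlap. Phgdh was at 8.14, 4.28 and 34.3 FPKM at low flow and 17.9 and 4.06 at high flow (0.49 ± 0.92, adjusted p = 0.843), and Psph was at 15.7, 9.44 and 13.6 FPKM against 11.5 and 9.31. These groups overlapped for both genes. Without the pools numbered 1, 3 genes rose, which were Aldh18a1, Pycr1 and Shmt2, against 3.83% of genes.

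The direct comparison of EC-KO with control at low flow gave no call, in 0.0% of 13352 genes. DESeq2 called 11 genes, and 880 were at p under 0.05 before adjustment. The deleted gene Rbfox2 was thus not called by edgeR either. Its low-flow pools were at 0.169 to 1.09 FPKM in EC-KO and 2.74 to 5.73 in controls, so a gene without a call is not shown to be unchanged. All 10 estimates were below 0, with a median of -1.01 against -0.04 over all genes. The largest was that of Asns, at 2.62, 3.78 and 7.48 FPKM in EC-KO pools 1, 4 and 5 and 6.39, 22.2 and 39.95 in controls (-2.30 ± 0.79, adjusted p = 0.692). Mthfd2 was at 6.94, 6.45 and 22.7 FPKM against 4.76, 55.4 and 58.6 (-1.72 ± 0.86, adjusted p = 0.692), so EC-KO pool 1 was above control pool 1 and EC-KO pools 4 and 5 were below control pools 4 and 5. Psph was at 15.7, 9.44 and 13.6 FPKM against 16.2, 23.7 and 29.2 (-0.82 ± 0.31, adjusted p = 0.692).

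Leaving out control pool 1 gave 5 lower genes, which were Aldh18a1, Psph, Shmt2, Mthfd2 and Asns, beside 5.57% of all genes. Leaving out both pools numbered 1 gave 1 lower gene, Shmt2 (-1.15 ± 0.24, adjusted p = 0.0478), against 1.07% of genes. The summed members were at 220.3, 221 and 462 CPM in the EC-KO pools and the proliferation genes at 549, 681 and 1664 CPM, both below control pools 4 and 5, while control pool 1 had 221 and 429 CPM. The macrophage markers were at 989, 1802 and 1265 CPM in EC-KO and at 427, 1678 and 324 CPM in controls, so they overlapped.

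At high flow no member passed between EC-KO and control, as for 0.00749% of genes, and the estimates fell on both sides, 7 above 0 and 3 below. Phgdh had the largest, at 17.9 and 4.06 FPKM in EC-KO and 4.21 and 2.11 in controls (1.73 ± 1.04, adjusted p = 1.0), which overlap. The test of whether the flow difference itself differed between genotypes gave 0 members and 0.0% of genes, with 19 genes called by DESeq2 and 538 at p under 0.05 before adjustment. For 9 of 10 members the flow difference was smaller in EC-KO, from -3.30 ± 1.42 for Mthfd2 to -0.63 ± 1.02 for Pycr1. For Mthfd1l the estimate was 0.01 ± 0.73. These values rest on 2 high-flow EC-KO pools that differed. Pools 4 and 5 had summed members of 165 and 97.1 CPM and proliferation genes of 577 and 216 CPM. Their lymphocyte markers summed to 135 and 18.7 CPM. The part of pool 4 in the smaller flow difference was not tested.

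**Figure D3:**
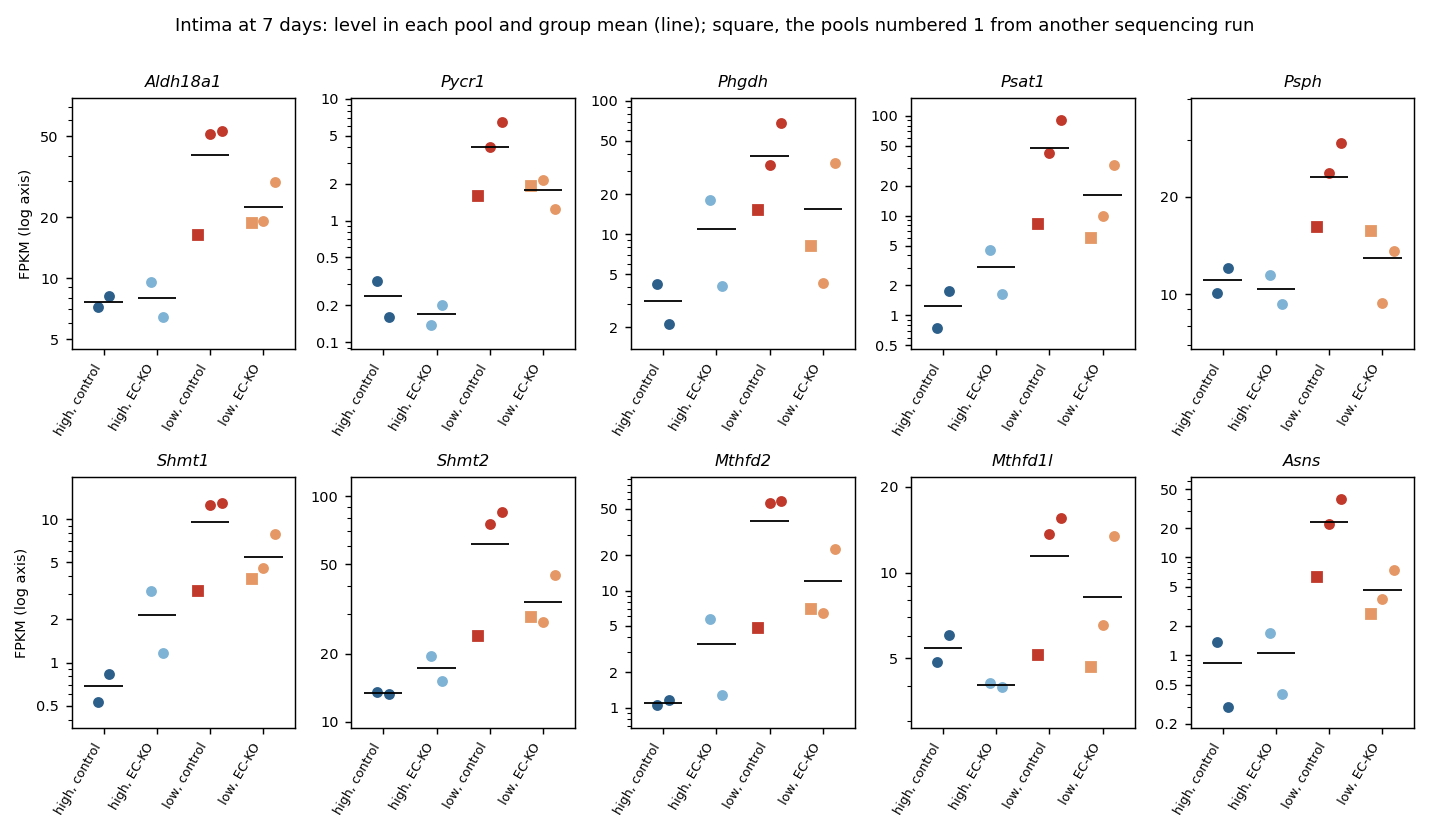
FPKM on a log axis for the 10 genes in the pools of 7 days by flow and genotype, with a point for each pool, squares for the pools numbered 1 and a line at the mean. Among low-flow controls the square lies far below the other points, at 4.76 against 55.4 and 58.6 FPKM for Mthfd2, and the EC-KO points lie at 6.45 to 22.7 FPKM.

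Across all libraries the summed members and the proliferation genes were high or low together in most pools, with a few exceptions. Low-flow PBS pool 1 had summed members of 797 CPM with 741 CPM of proliferation genes, and anti-Gr1 pool 2 had 494 CPM with 323 CPM, whereas low-flow PBS pool 2 had 738 CPM with 2599 CPM. High-flow PBS pool 2, at 183 CPM, was above high-flow PBS pool 1 at 110.4 CPM, with proliferation genes at 777 and 148 CPM. For the macrophage markers, clodronate pool 2 and 7 day control pool 5 had 749 and 983 CPM of members beside 236.5 and 324 CPM of macrophage markers. The libraries share their preparation, and no test was made.

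**Figure D4:**
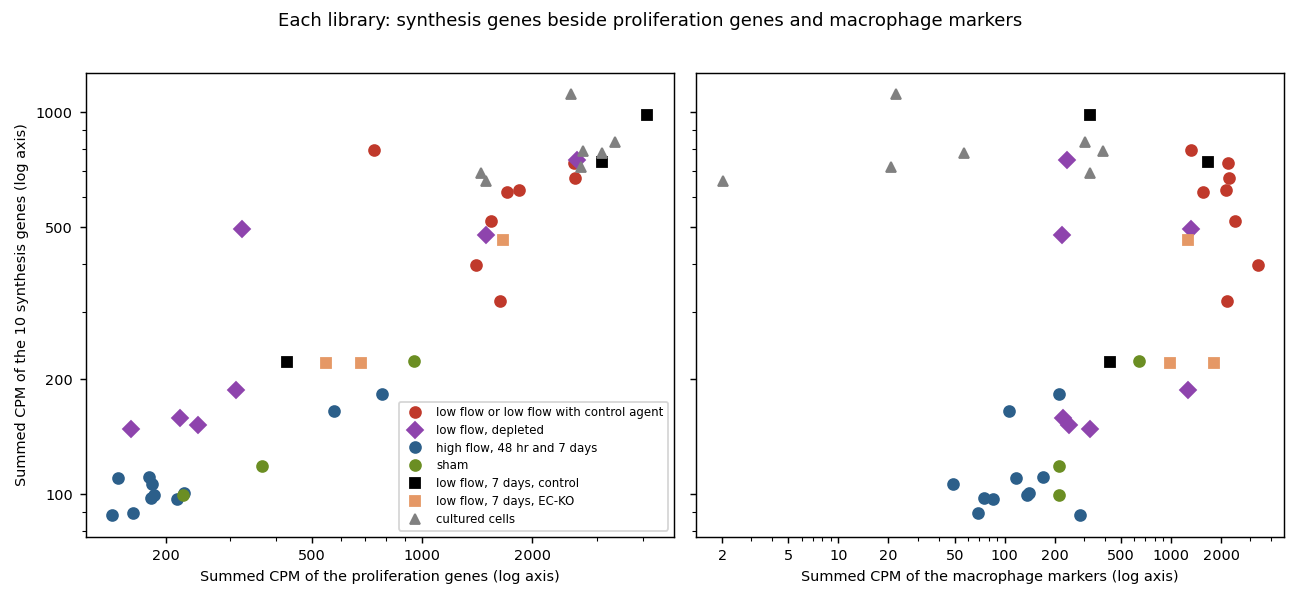
Summed CPM of the 10 synthesis genes in each library (vertical, log axis) against the summed CPM of 15 proliferation genes (left, log axis) and of 14 macrophage markers (right, log axis). Cultured cells lie at 659.6 to 1113 CPM of the members with macrophage markers from 2.01 to 387 CPM, and anti-Gr1 pool 2 lies at 494 CPM with 323 CPM of proliferation genes.

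The members followed one another over the 24 fresh libraries read at 150 bp, as a description without a test. On the log2 scale, Pearson's r with the mean of the other 9 was 0.978 for Psat1, 0.977 for Shmt2, 0.956 for Aldh18a1 and 0.942 for Shmt1, and lowest for Mthfd1l, at 0.724. Ordered by the mean standardized level of the members, the 6 lowest libraries were all high-flow libraries, the next were anti-GPIba pools 2 and 1 and clodronate pool 1, and the highest was low-flow 7 day control pool 5. Of 11946 other genes, those with the highest correlation with this mean were Pgk1, a glycolytic kinase (0.979), BC048355 (0.979), Cct5, a chaperonin subunit (0.976), Prpf31, a splicing factor (0.976), and Tubb5, a tubulin (0.974). These libraries share preparation and fall into groups by flow, so the correlations describe that split as well.

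In culture, where no flow was applied, the members as a sum were above the untreated low-flow pools in plain CPM, but not above all other low-flow pools. The summed members were at 717 to 837 CPM in the cell line and at 659.6 and 692 CPM in primary EC-KO and control cells. In primary cells sorted on eGFP they were at 1113 CPM. Untreated low-flow pools had 319.8 to 625 CPM, and pools a and b of these had the low TMM factors given above. Low-flow pools had 520 and 672 CPM with IgG and 738 and 797 CPM with PBS liposomes. The 7 day low-flow control pools 1, 4 and 5 had 221, 739 and 983 CPM. By group mean FPKM, a culture held the highest level for 8 of the 10 genes and a low-flow group for the other 2, Pycr1 and Shmt2, and a high-flow group held the lowest for all 10. Primary eGFP cells were the highest for Phgdh, at 116.5 FPKM, Psat1, at 95.4, Psph, at 59.7, Mthfd2, at 103.9, and Asns, at 121.8. Cultures have 1 library each, so neighbours in this order cannot be told apart by replicates. The line had only low levels of the endothelial markers, as given above. Its 8 fibroblast markers were all detected and summed to 1368 to 2446 CPM. In the fresh intima this sum was 79.1 to 1367 CPM, other than 4796 CPM in low-flow EC-KO pool 4 of 7 days. The cell type of the line was not tested.

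With the additions to the line, the proline genes lay above their untreated level and Shmt1 below it. Aldh18a1 was at 32.1 FPKM with nothing added, then at 50.1 with plasma, at 50.04 with cells and platelets, and at 63.1 with all, and the ratio to the untreated line was 1.56 (95% interval 1.46 to 1.66), 1.56 (1.46 to 1.66) and 1.96 (1.85 to 2.08). Pycr1 was at 2.31, 4.47, 6.06 and 4.95 FPKM in the same order, with ratios of 1.93 (1.49 to 2.51), 2.62 (2.06 to 3.36) and 2.14 (1.68 to 2.75). Shmt1 was at 20.5, 11.7, 13.8 and 8.10 FPKM, with ratios of 0.568 (0.494 to 0.653), 0.673 (0.590 to 0.769) and 0.395 (0.339 to 0.458). The proline genes were above the untreated line and Shmt1 below it in each of the 3 cultures, where the median gene with enough counts had a ratio of 0.977, 0.949 and 0.927.

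Among the serine genes Phgdh was at 95.5, 89.7, 85.3 and 72.5 FPKM in the same order, and its interval lay below 1 each time. Mthfd1l was at 8.80, 7.53, 11.3 and 18.0 FPKM, so it was highest with all 3 additions, at a ratio of 2.04 (1.83 to 2.28). Of the 10 genes, 5 were above 1 by their interval, 4 below and 1 held 1 with plasma, 5, 2 and 3 did so with platelets and macrophages, and 5, 3 and 2 with all additions. Of the genes with at least 10 counts in both libraries, 30.2% were above 1 and 35.4% below with plasma, 25.8% and 38.3% with platelets and macrophages, and 30.6% and 43.6% with all additions. Phgdh lay near the middle of these genes, above 45.1% of them with plasma and 42.0% with platelets and macrophages. The intervals cover counting error alone, since PCR copies of a molecule count as separate reads. The macrophage markers summed to 387 and 302 CPM in the cultures with added cells and 20.6 CPM in the untreated line, and the part of RNA from the added cells was not tested.

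Primary EC-KO and control cells differed in both directions. Phgdh was at 52.2 FPKM in EC-KO and 74.0 in control cells, a ratio of 0.706 (0.651 to 0.765), and Shmt1 at 5.71 and 8.05 FPKM, a ratio of 0.710 (0.560 to 0.896). Mthfd1l was at 6.52 and 4.94 FPKM, a ratio of 1.32 (1.10 to 1.59), and Psat1 at 55.1 and 44.5 FPKM, a ratio of 1.24 (1.14 to 1.35). Of the 10 genes 3 were above 1, 3 below and 4 held 1, beside 30.9%, 24.6% and 44.4% of the genes with at least 10 counts in both. Rbfox2 was at 0.675 FPKM in EC-KO and 9.33 in control cells. The macrophage markers were at 2.01 CPM in EC-KO and 326 CPM in control cells, and with 1 library each this difference and that of the genotype cannot be told apart.

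**Figure D5:**
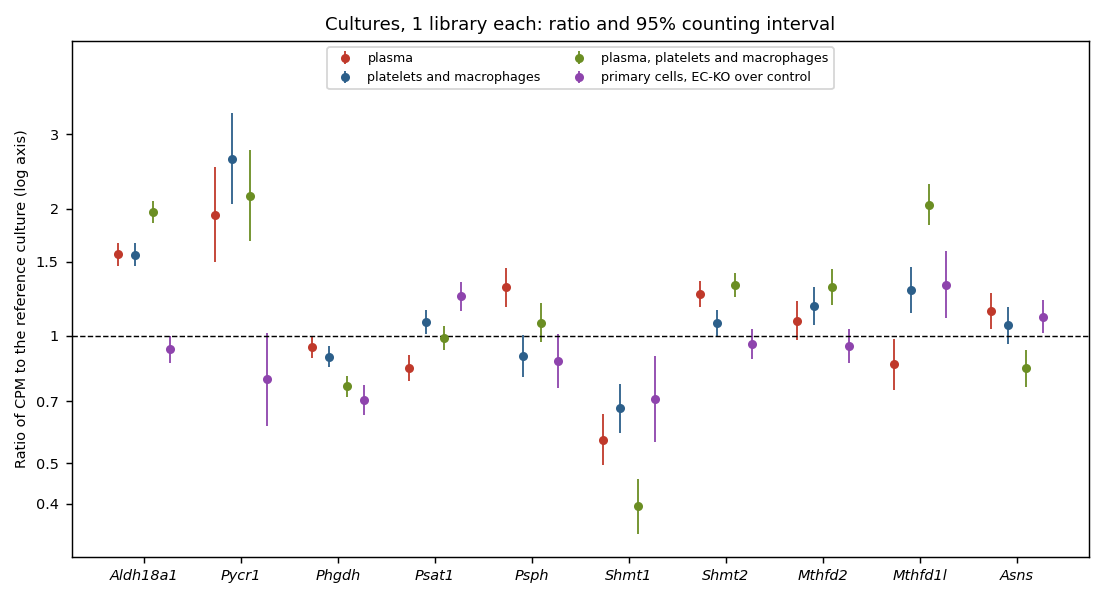
Ratio of CPM to the reference culture for the 10 genes (log axis), with bars for the 95% counting interval, for the cell line with each addition over the untreated line and for primary EC-KO over control cells, 1 library each. Aldh18a1 and Pycr1 lie above 1 with every addition, from 1.56 to 2.62, and Shmt1 lies below 1, from 0.395 to 0.673.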

How the data were processed

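The authors mapped reads of SMARTer low-input libraries to mm9 and deposited 1 table of expected counts per gene, estimated by RSEM and not normalized, with RPKM for some libraries. RSEM 1.2.15 and STAR 2.5.1b stand in the submitters' processing notes. For the untreated pools the methods name TopHat as well. RPKM, deposited by the authors, only checked the FPKM computed here from counts, effective length and library total (median ratio 0.928 to 1.03). Of 204 value columns, 70 were mapped to samples or groups and 134 were not used. Of 21675 entries 1 without a name was left out. A library sequenced more than once is represented by 1 run. Between 5.20% and 19.3% of expected counts a library were not exactly whole, and a member's count was not exactly whole in at most 5 of 42 libraries, by at most 0.47.

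Counts were rounded and tested with edgeR 4.0.16 in R 4.3.3 (filterByExpr, TMM, quasi-likelihood test, Benjamini-Hochberg adjustment, threshold 0.05), in 1 fit for the 2 groups of each untreated comparison, for the 7 treated groups and for the 4 groups of 7 days. DESeq2 1.42.0 (limma 3.58.1 is loaded by edgeR) and the alternatives under the closing section were also run. Scripts used Python 3.11.15, pandas 2.3.3, numpy 2.4.6, scipy 1.17.1 and matplotlib 3.10.9, and the fits were tested on simulated data. Ratios of single libraries carry a 95% interval for counting error, and a count of 0 is bounded by 3 counts. The p-values measure the spread between pools of arteries.

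The members and gene lists were chosen with earlier results of these data known. All 10 members are named, and of each list up to 3 genes with the smallest adjusted p between untreated low and high flow. One gene that this rule names is not reported here. The most alike genes were ranked by Pearson's r of log2(CPM + 0.5) with the mean of the standardized members. Gene positions are those of mm9 and promoter windows those of RefSeq on GRCm38.p6. The 7 day numbers 1, 4 and 5 come from column names. Deviations of same-numbered pools of EC-KO and control at low flow correlated at 0.513, 0.170 and 0.345, so only these pools were regarded as possibly paired. The estimates and adjusted p-values of the Results come from fits without a block for this comparison too. The block was run as an alternative.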

Additional observations from a re-analysis of the deposited data

How the results depend on the processing

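Of 1597 estimates for the members under the alternatives run, 1567 kept their direction and 30 turned. With anti-GPIba the members called were 8 by DESeq2, 6 without the low count filter, 10 with the 2 groups alone and 0 with any 1 pool left out. In 7 day controls they were 9 by DESeq2, 7 without the filter, 0 with the 2 groups alone, 10 without the pools numbered 1, and 0 to 10 with 1 pool left out. In EC-KO low against high flow they were 2 by DESeq2, 2 with the groups alone and 3 without the pools numbered 1, and for EC-KO against control at low flow 1 without those pools and 0 to 5 with 1 pool left out. Leaving out 1 pool gave 5 to 9 with IgG, 0 to 6 with PBS liposomes and 0 to 4 for clodronate.

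With the replicate number as a block, the members called were 6 with anti-GPIba, 9 in 7 day controls (10 without the pools numbered 1), 4 in EC-KO low against high flow (4 without those pools), and 1 for EC-KO against control at low flow without those pools. With PBS liposomes the block gave 9 in place of 8. Of 13401 genes in these block fits, 1991 fell with anti-GPIba and 2846 rose with PBS liposomes. The counts over all genes for the 7 day block fits are given below. Over 21 pairs of treated groups, equal numbers correlated with a median of 0.0101, from -0.17 to 0.57 and from 0.49 to 0.57 between the 3 liposome groups, where each pair of groups of 2 pools gives 1 value, and not every pair was over 0.1. In the low-flow comparison of EC-KO with control at 7 days the block changed no call with all pools. No paired analysis was possible because the untreated pools carry no shared number. The other sequencing run of the untreated pools, and the sum of both runs, were not run, since a column can be matched to a group alone.

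None of the estimates that turned had passed the test. For high flow against sham, Asns (-0.0046) became 0.0111 by DESeq2, 0.0102 without the filter and 0.0081 with all 9 pools, and ran from -0.82 to 1.5025 with 1 pool left out, as Psph did from -0.29 to 0.12 and Mthfd2 from -0.65 to 0.32. With 1 pool left out, the anti-Gr1 estimates ran from -1.57 to 0.15 for Aldh18a1, -1.29 to 0.0058 for Shmt2, -2.20 to 0.0856 for Mthfd2 and -2.05 to 0.0699 for Asns, and the clodronate estimates from -2.55 to 0.15 for Phgdh and -3.82 to 0.0384 for Psat1. For EC-KO against control at high flow they ran from -0.24 to 0.24 for Aldh18a1, -0.91 to 0.0137 for Pycr1, -0.29 to 0.0198 for Psph and -1.04 to 1.70 for Asns, and for Phgdh between low and high flow in EC-KO from -0.81 to 1.83. The interaction of Mthfd1l (0.0125) was -0.0009 without the filter, -0.0425 with plain totals, -0.0657 without the pools numbered 1, -0.13 with the block as well, and -0.51 to 0.33 with 1 pool left out. The causes were not tested.

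Counts over all genes moved by more than 1.5 times in these cases. With 1 pool left out, they ran from 2513 to 4757 for low flow against sham (4499 with all), 0 to 78 for high flow against sham, 2141 to 4231 with IgG (5422), 1482 to 3839 with PBS liposomes (4692), 1 to 89 with anti-GPIba (2216), 0 to 937 for clodronate (16), 0 to 150 between the antibodies, 0 to 1476 for EC-KO against control at low flow and 0 at high flow (1), 3 to 3897 in 7 day controls (320), 1 to 15 in EC-KO low against high flow (146) and 0 to 7 for the interaction. For high flow against sham 0 became 101 by DESeq2 and 63 without the filter. With anti-GPIba 2216 became 3659 by DESeq2 and 4449 with the groups alone, with anti-Gr1 0 became 142 and 225, and between these antibodies 0 became 354 and 71, 76 without the filter and 4 with the block. For clodronate 16 became 467 by DESeq2, 92 without the filter, 6 with plain totals, 64 with the block and 0 with the groups alone. For EC-KO against control, 0 at low flow became 11 by DESeq2, 374 without the pools numbered 1 and 519 with the block as well, and 1 at high flow became 27 by DESeq2, 0 with plain totals, 4 with the block and 3 with the block without those pools. In 7 day controls 320 became 2187, 654 without the filter, 2940 with the block, 3 with the groups alone, and 3840 and 3950 without the pools numbered 1. In EC-KO low against high flow 146 became 948, 221 without the filter, 1317 with the block, 858 with the groups alone, and 1100 and 1290 without those pools. The interaction went from 0 to 19 by DESeq2.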
